A study of Mus musculus with 18 samples.

Results

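The cytochrome P450 genes of the mouse arrays are described here. They were taken as every gene whose name in the array annotation reads Cyp, digits, a letter and digits (Cyp3a11, for example), with Cyp51 left out, and each is represented by its brightest probe. The rule gave 76 genes, covered by 109 probes, of 19700 named genes, and it used no measured value beyond the choice of the probe. The series asked how closely intestinal organoids grown from fibroblasts by direct conversion resemble organoids grown from intestine. RNA was hybridised to 18 Agilent 1-colour arrays, 3 in each of 6 groups, all from C57BL/6 mice. The groups were budding organoids grown from intestinal stem cells induced from fibroblasts (iISC), a mixture of spherical and budding organoids grown from fetal-type intestinal progenitors that were likewise induced (iFIPC), budding organoids from adult intestinal crypts (crypt), a mixture of spherical and budding organoids from fetal intestinal progenitors (FI), hepatocyte-like cells converted from fibroblasts (iHep) and the mouse embryonic fibroblasts themselves (MEF). The 3 iHep samples carry the codes 4α1, 4α2 and 4α3, which the labels do not explain, so whether they repeat 1 conversion is not known. The iHep and MEF arrays are labelled as re-analysed from earlier work. The iHep samples are called iHep 1, 2 and 3 below. The labels name no converting factor and do not say whether samples within a group came from separate animals or cultures, so each p-value measures the spread between these samples, which may be technical.

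Cytochromes P450 are haem enzymes that insert an oxygen atom into their substrate, most of them in the endoplasmic reticulum with electrons passed on by the reductase Por, some in mitochondria. The CYP1, CYP2 and CYP3 families oxidise drugs, plant compounds and many fatty acids, the CYP4 family oxidises the ends of fatty acids and leukotrienes, and smaller families make or break down bile acids, steroid hormones, vitamin D and retinoic acid. Hepatocytes are rich in P450 enzymes, and the absorptive enterocytes of the small intestine are the main site of drug oxidation outside the liver.

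Levels are given as log2 of the array's processed signal minus that array's 75th percentile over gene probes, so 0 is the 75th percentile and a difference of 1 is 2-fold. The percentile ranged from 714 to 1484 units of intensity. Between 56.1% and 68.7% of an array’s gene probes stood clear of background, and the number of arrays limits the precision. MEF arrays 2 and 3 differed by 0.808 times the spread expected from repeated spots, whereas every other pair within a group differed by 2.07 to 6.80 times it, so both were averaged and counted as 1 sample, leaving 2 MEF samples. Differences were tested with limma across all genes. A comparison tested the genes whose probe cleared background on all arrays of 1 or more of its groups. A gene is called where the adjusted p (Benjamini-Hochberg over all genes tested) was under 0.05 and the log2 difference 1 or more in size. Another scanner model and software version served for the MEF and iHep arrays than for the organoid arrays. For comparisons across these sets, instrument and cell type cannot be told apart, and 7 spike-in controls read 0.52 to 1.20 log2 units lower on the organoid arrays. The arrays lay on 5 slides, and no slide held both iISC and crypt samples or both iFIPC and FI samples. Summed hepatocyte markers reached 331 to 1504 times the 75th percentile in iHep samples and at most 37.6 in any other sample, and summed fibroblast markers were 1157 to 1163 in MEF samples and still 111 to 247 in iHep samples. Summed goblet cell markers were 258 to 588 in iHep samples and 91.7 to 206 in organoid samples. Of the 5 goblet markers, 3 were called higher and 2 lower in iISC organoids than in iHep cells. Summed enterocyte markers were 14.9 to 78.7 in iHep samples.

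Of the 76 P450 genes, 45 were well above background on all 3 iISC arrays, 56 on all 3 iFIPC arrays, 51 on all 3 crypt arrays, 54 on all 3 FI arrays, 42 on all 3 iHep arrays and 32 on all 3 MEF arrays. A level above the array's 75th percentile was reached on average by 31 genes in iISC organoids, 24 in iFIPC organoids, 33 in crypt organoids, 31 in FI organoids, 12 in iHep cells and 7 in MEFs. Cyp7a1, which encodes the rate-limiting enzyme of bile acid synthesis, Cyp26a1, a retinoic acid hydroxylase, Cyp11b2, the aldosterone synthase, and Cyp2g1, an olfactory P450, were not well above background on any array. The other 72 genes are drawn in the plot of all arrays.

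**Figure D1:**
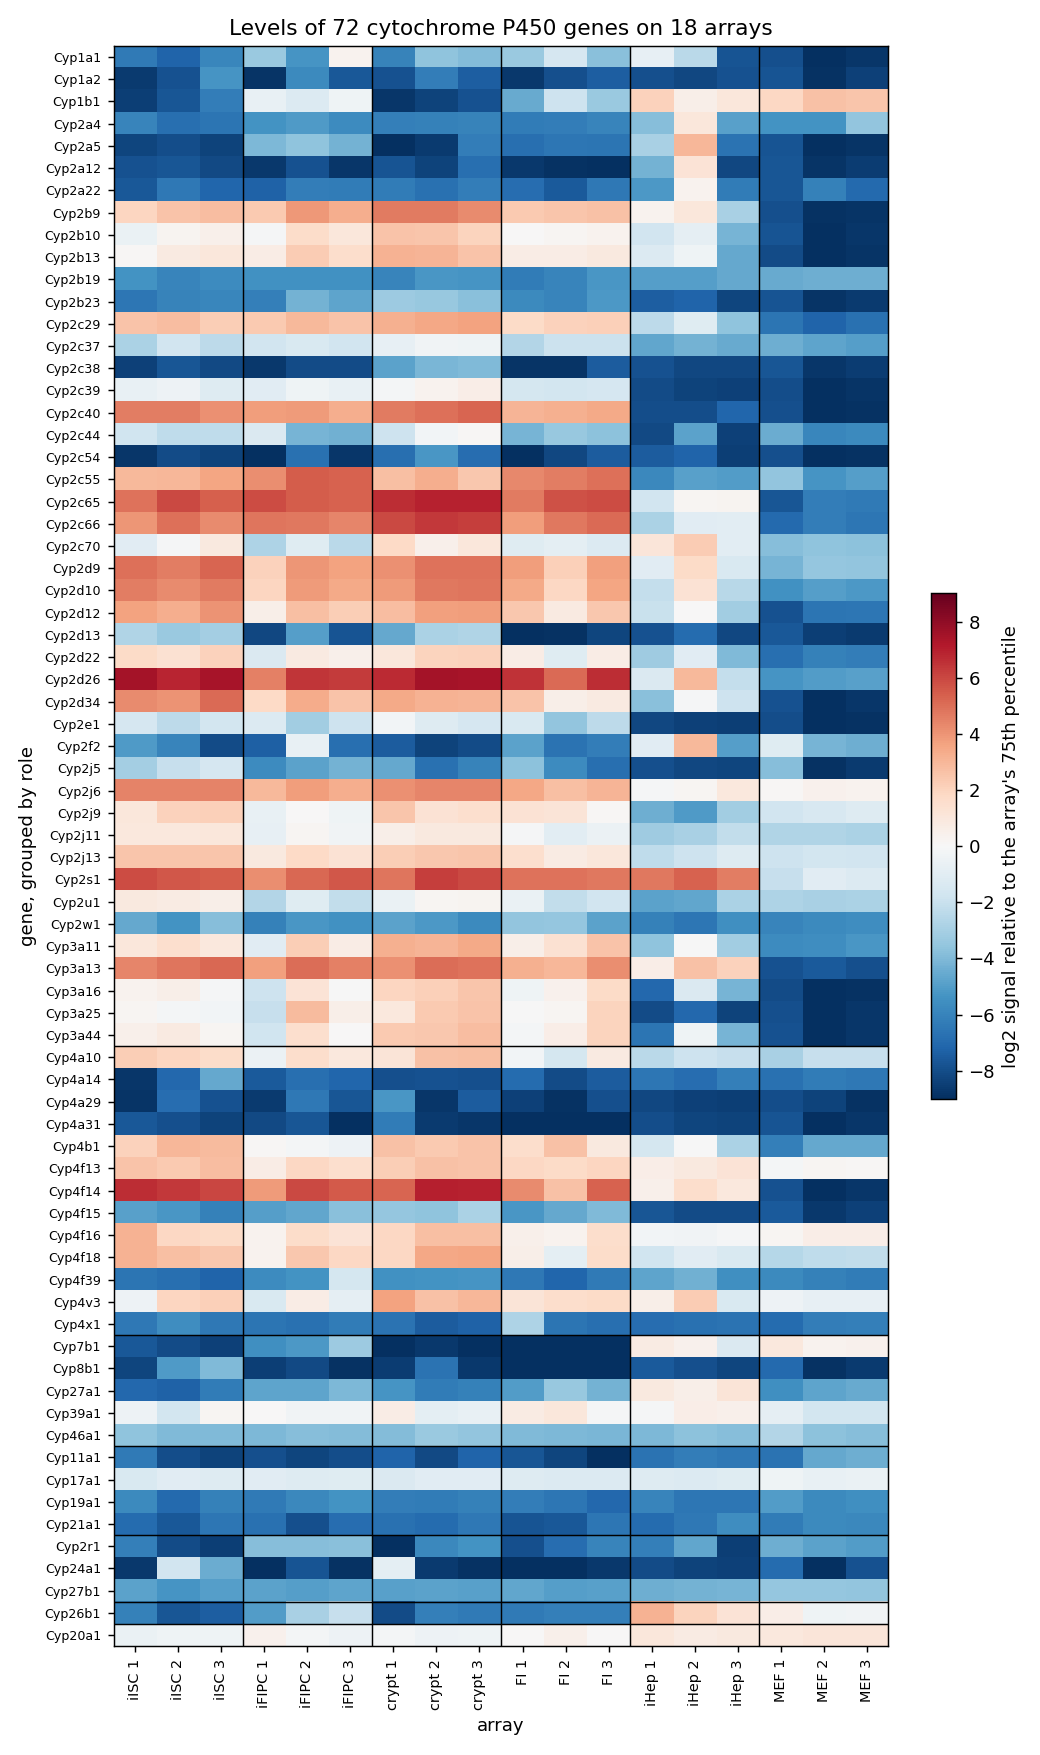
Levels of the 72 P450 genes that were well above background on at least 1 array, as log2 signal relative to the array's 75th percentile (colour), by gene (rows, grouped by role) and array (columns, 3 for each of 6 groups). Most CYP2B, CYP2C, CYP2D and CYP3A rows are red in the organoid groups and blue in MEFs, whereas Cyp1b1, Cyp7b1 and Cyp26b1 are brightest in iHep cells and MEFs.

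P450 subfamilies arose by gene duplication, and a 60-base probe can match several of their transcripts. By the transcripts the array annotation lists, 9 of the 76 probes matched more than 1 gene, and their values cannot be assigned to a single one. The probes for Cyp2b13 and Cyp2j13 are shown because both lie in the segment that encodes the loop around the haem-binding cysteine, which is conserved across the family. Capitals mark GGAAAGCG, the run of letters in that segment that both probes hold, and the coordinates include the introns that the probes skip.

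Cyp2b13 probe (chr7:26873757-26880713, + strand, mm9): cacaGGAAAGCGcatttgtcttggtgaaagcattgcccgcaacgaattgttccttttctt
Cyp2j13 probe (chr4:95712305-95723288, - strand, mm9): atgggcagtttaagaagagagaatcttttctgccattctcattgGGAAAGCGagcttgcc

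The Cyp2b13 probe also matched Cyp2b9, Cyp2b10 and Cyp2b23, the Cyp2j13 probe also Cyp2j12, the probe for Cyp2b9 also Cyp2b10, that for Cyp2a4 also Cyp2a5, that for Cyp2c37 also Cyp2c50, that for Cyp2c40 also Cyp2c67, Cyp2c68 and Cyp2c69, that for Cyp2d9 also Cyp2d11, Cyp2d22 and Cyp2d34, that for Cyp3a11 also Cyp3a41a, Cyp3a41b and Cyp3a44, and that for Cyp3a25 also Cyp3a59. The probes for Cyp2b10 and Cyp2b23 listed transcripts of their own gene alone. Where a called gene had another probe above background, that probe differed in the same direction in 85 of 91 probe values from 16 genes. The 6 opposite values came from Cyp2d22 and Cyp4a10, whose directions in those comparisons depend on the probe.

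The first question was which P450 genes fibroblasts gained on conversion to hepatocyte-like cells. In iHep cells 20 P450 genes were higher and 1 was lower than in MEFs, of 46 tested, while 27.8% of all 14399 genes tested were called (11.9% higher and 15.9% lower). The genes with the greatest gains were Cyp3a13, a CYP3A enzyme of liver and intestine, and Cyp4f14, a fatty acid and leukotriene hydroxylase. Cyp3a13 (chr5:138335318-138335377, - strand, mm9) was at 0.62, 2.66 and 2.05 in iHep 1 to 3, against -7.81 and -7.71 in the MEF samples, where no array was above background. The 3 iHep levels all lay far above both MEF levels, at least 254-fold higher. Cyp4f14 was at 0.48, 1.60 and 0.93 in iHep cells, against -7.83 and -8.84 in MEFs, at least 148-fold higher. Both genes entered the test through their iHep arrays alone.

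Cyp2s1, a P450 of epithelia, was at 4.74, 5.31 and 4.64 in iHep cells and -2.07 and -1.14 in MEFs, a log2 difference of 6.50 ± 0.45 (SE; adjusted p = 1.51e-07, limma). Cyp27a1, the mitochondrial sterol hydroxylase of the acidic bile acid pathway, was at 0.87, 0.51 and 1.13 in iHep cells and -5.50 and -4.63 in MEFs, a log2 difference of 5.90 ± 0.46 (adjusted p = 5.12e-07, limma). Both genes separated the groups without overlap, and Cyp27a1 stayed at or below -3.41 in all 12 organoid samples. The 3 CYP2B genes called were Cyp2b9 (at least 52.3-fold), Cyp2b13 (at least 17.8-fold) and Cyp2b10 (at least 15.8-fold), the last of them a target of drug-sensing receptors in liver. Of the CYP2C genes, Cyp2c65 (log2 difference 6.55), Cyp2c66 (5.05), Cyp2c70 (4.56) and Cyp2c29 were called higher too. Cyp2c65 and Cyp2c66 cleared background on some MEF arrays only and Cyp2c29 on none, so no size is given for Cyp2c29. All 6 CYP2D genes tested rose, by log2 differences of 3.64 for Cyp2d9 to 5.50 for Cyp2d12, with Cyp2d34 at least 19.9-fold higher. Cyp2j9, a CYP2J gene, was the 1 gene that fell, at -4.40, -5.11 and -3.13 in iHep cells and -1.72 and -1.29 in MEFs (log2 difference -2.70 ± 0.56, adjusted p = 0.00173, limma).

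Several P450 genes by which liver is known were not above background in iHep cells. Besides Cyp7a1, these were Cyp8b1, the sterol hydroxylase that sets the ratio of bile acids, Cyp2e1, the ethanol-oxidising enzyme, Cyp1a2, an oxidase of caffeine, and Cyp3a25, Cyp2c39 and Cyp2c40, on 0 of 3 iHep arrays each. The iHep samples also differed from each other more than the samples of any other group. The median range over 3 samples was 1.99 log2 units for the 53 genes above background on at least 1 iHep array, against 0.758 to 1.43 in the organoid groups, and 33 of the 53 genes were highest in iHep 2. Cyp2a5, the coumarin hydroxylase of liver, was at -2.89, 2.98 and -6.63 in iHep 1, 2 and 3, and Cyp2f2, an enzyme of liver and airway, at -1.02, 2.91 and -4.95. Both were highest in iHep 2 and lowest in iHep 3, and neither was called against MEFs: Cyp2a5 was above background on 2 of 3 iHep arrays and so was not tested. Cyp1a1, a target of the aryl hydrocarbon receptor, ran in another order, at -0.76, -2.41 and -7.78. Summed hepatocyte markers were also highest in iHep 2 (1504, with 886 in iHep 1 and 331 in iHep 3); their part in these values was not tested.

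On the slide that held MEF 1 with all 3 iHep samples, the 21 called genes kept their direction and 6 of them kept the call (7 P450 genes called in all), in a fit with 1 MEF sample. With slide as a term in the model 22 P450 genes were called (19 higher and 3 lower), 19 of them among the 21, and Cyp3a11 and Cyp39a1 lost the call. When only genes above background on every array of both groups were tested, 8 of 28 P450 genes were called. Of all 12725 genes tested that way, 2737 were called, so the P450 count depends on genes that are dim in 1 group.

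**Figure D2:**
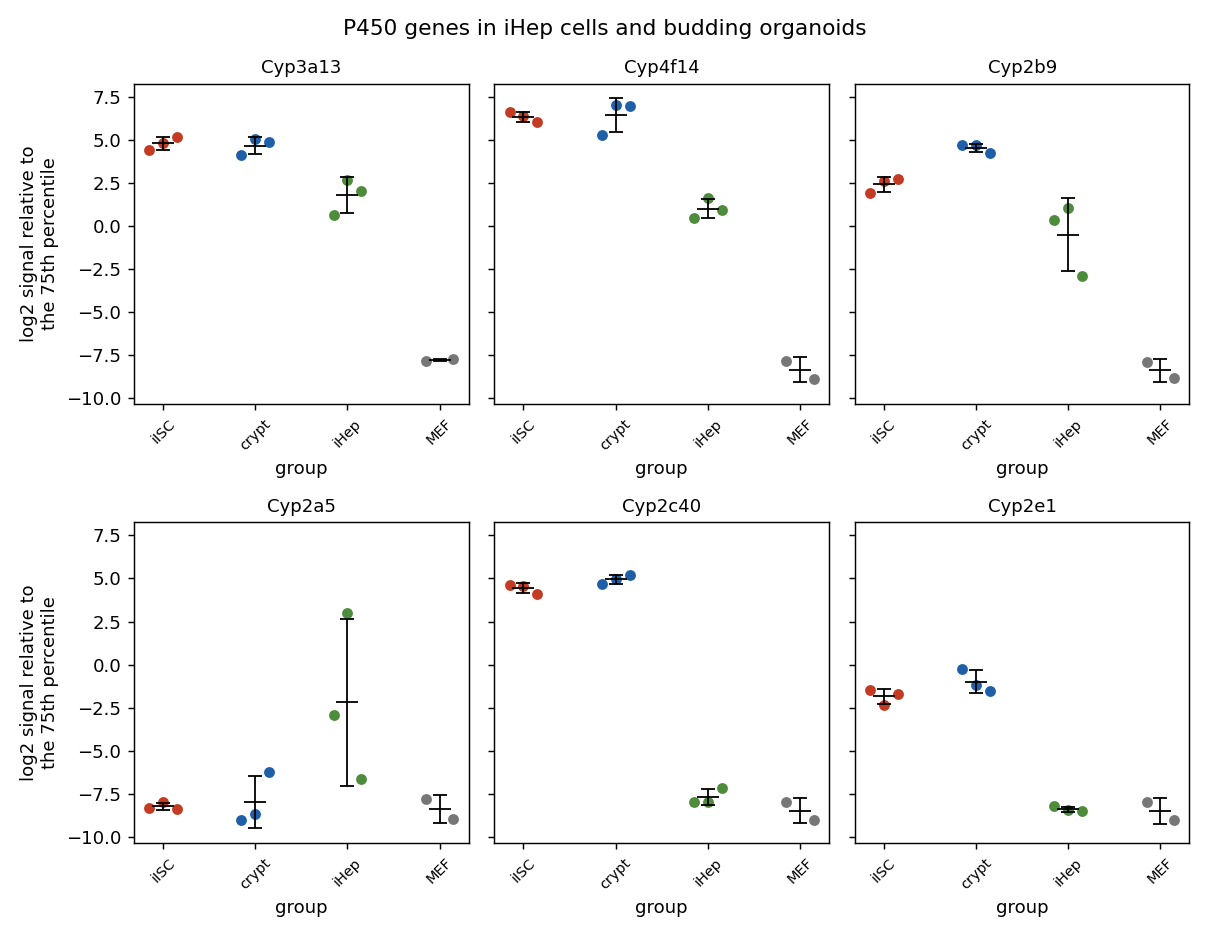
Levels of 6 P450 genes as log2 signal relative to the 75th percentile (vertical axis) in iISC organoids, crypt organoids, iHep cells and MEFs (horizontal axis). Points are samples (3 in each group, 2 in MEFs), bars are means with SD: Cyp3a13, Cyp4f14 and Cyp2b9 lie between organoids and MEFs in iHep cells, Cyp2a5 spreads widely among the iHep samples, and Cyp2c40 and Cyp2e1 are at the bottom in iHep cells.

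Most P450 genes tested were higher in each organoid group than in MEFs. Called higher than in MEFs were 39 of 54 P450 genes tested in iISC organoids (8 were lower), 34 of 58 in iFIPC organoids (5 lower), 41 of 58 in crypt organoids (7 lower) and 38 of 58 in FI organoids (6 lower). Of all genes tested, 48.5% were called in iISC against MEF (23.1% higher and 25.4% lower), 43.5% in iFIPC against MEF (20.2% higher and 23.3% lower), 50.3% in crypt against MEF (24.2% higher and 26.1% lower) and 47.1% in FI against MEF (23.3% higher and 23.8% lower); the comparisons share the MEF samples. Cyp4f14 was at 6.62, 6.37 and 6.02 in iISC organoids, against -7.83 and -8.84 in MEFs, at least 5990-fold higher. The bounds against MEFs were 2529-fold in iFIPC organoids, 6328-fold in crypt organoids and 1254-fold in FI organoids. Cyp2c40, one of the CYP2C genes of liver and intestine, was at 4.63, 4.59 and 4.10 in iISC organoids, 3.76, 3.83 and 3.30 in iFIPC organoids, 4.67, 4.98 and 5.21 in crypt organoids and 3.07, 3.17 and 3.43 in FI organoids, and on no iHep or MEF array above background.

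The intestinal and the hepatocyte-like conversions started from the same cell type and can be set side by side, within the limit of the 2 array sets. In iISC organoids 37 P450 genes were higher and 8 lower than in iHep cells, of 53 tested, while 39.8% of all genes tested were called (20.5% higher and 19.3% lower). In iFIPC organoids 36 were higher and 6 lower than in iHep cells, of 57 tested, while 34% of all genes tested were called (17.5% higher and 16.6% lower). Both comparisons share the iHep samples. For Cyp2c40, iISC organoids exceeded iHep cells at least 1438-fold and iFIPC organoids exceeded them at least 817-fold. Cyp2c55, which oxidises arachidonic acid and is known from the large intestine, was higher than in iHep cells by 8.37 ± 0.43 log2 units (SE) in iISC organoids and by 10.19 ± 0.43 in iFIPC organoids. Cyp27a1 ran the other way and was at least 124-fold lower in iISC organoids, with a log2 difference of -5.35 ± 0.41 in iFIPC organoids. Cyp2s1 was at 5.88, 5.57 and 5.46 in iISC organoids, 4.17, 5.19 and 5.60 in iFIPC organoids and 4.74, 5.31 and 4.64 in iHep cells, and was called in neither comparison.

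The 250 bases before the start of transcription were read for the 57 P450 genes that RefSeq's promoter table holds (66 promoter entries; GRCm38.p6), on both strands, and for all 32851 entries. The motif CAAAGTCCA, a binding site known for Hnf4a, a nuclear receptor of liver and intestine, stood in 6 of the 66 entries (9.09%) and in 0.384% of all entries. The 6 genes were Cyp2c40, Cyp2c65, Cyp2c70, Cyp3a11, Cyp3a16 and Cyp8b1. Of these, Cyp8b1 was above background on no crypt, iFIPC or FI array. The upstream sequences of Cyp2c65, Cyp2c40 and Cyp3a11, whose probes were well above background on every organoid array, are shown with the motif in capitals. The Cyp2c40 and Cyp3a11 probes also match other genes, so their signal cannot be assigned to the genes shown.

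Cyp2c65 upstream (chr19:39060756-39061005, + strand, GRCm38.p6): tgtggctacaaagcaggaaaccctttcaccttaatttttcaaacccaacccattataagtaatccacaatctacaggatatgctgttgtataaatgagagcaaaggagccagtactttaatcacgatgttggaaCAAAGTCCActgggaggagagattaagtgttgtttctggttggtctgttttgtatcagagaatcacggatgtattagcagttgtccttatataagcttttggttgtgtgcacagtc
Cyp2c40 upstream (chr19:39812815-39813064, - strand, GRCm38.p6): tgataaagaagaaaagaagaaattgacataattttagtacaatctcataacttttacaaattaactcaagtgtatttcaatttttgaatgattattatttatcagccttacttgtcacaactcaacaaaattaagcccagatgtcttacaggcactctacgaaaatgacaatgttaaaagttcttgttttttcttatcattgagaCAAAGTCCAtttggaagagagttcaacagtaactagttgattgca
Cyp3a11 upstream (chr5:145879855-145880104, - strand, GRCm38.p6): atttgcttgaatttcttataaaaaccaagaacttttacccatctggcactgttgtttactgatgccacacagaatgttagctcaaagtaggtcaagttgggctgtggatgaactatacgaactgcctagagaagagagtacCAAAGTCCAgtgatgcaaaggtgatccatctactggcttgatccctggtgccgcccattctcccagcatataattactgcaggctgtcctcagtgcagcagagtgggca

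A further 10 motifs were searched, which were AGGTCA (24.2% of the P450 entries, 14% of all), a core site of nuclear receptors, the same letters preceded by T, any letter, A and A (4.55% and 0.402%), the direct repeat of AGGTCA with 1 letter between (0% and 0.0335%), both of which overlap it, CAAAGTTCA (1.52% and 0.335%), TTTATNG, the form bound by Cdx2 (13.6% and 9.81%), GCGTG, the core bound by the aryl hydrocarbon receptor (19.7% and 28.2%), TATAAA, the TATA box (36.4% and 12.4%), TGA and TCA with 7 letters between (3.03% and 5.31%), ATTGCNNNA (6.06% and 6.09%) and TTGCGCAA (0% and 0.164%). A match describes the letters in the window and no binding.

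Organoids of adult crypts were set against FI organoids and against iISC organoids. Against FI organoids, 20 P450 genes were higher in crypt organoids and 3 were lower, of 57 tested, while 9.15% of all 14180 genes tested were called (3.16% higher and 5.99% lower). Of the higher genes, 4 were CYP2B genes (of 5 tested), 9 were CYP2C genes (of 10 tested), 3 CYP2J, 2 CYP2D and 2 CYP4. Against crypt organoids, iISC organoids had 9 P450 genes lower and 1 higher, of 52 tested, while 3.39% of all 13596 genes tested were called (2.08% higher and 1.31% lower). The lower genes were 4 CYP2B genes, 4 CYP2C genes and Cyp4f15, a member of the leukotriene-oxidising CYP4F genes. The other 6 of 10 CYP2C genes tested and Cyp2b19 were not called in iISC against crypt organoids, and with slide as a term none of the 10 calls remained there. The 2 comparisons share the crypt samples.

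Cyp2b10 (chr7:26702056-26702115, + strand, mm9), the classic target of the drug-sensing receptor Nr1i3 (CAR), was at -0.59, 0.23 and 0.44 in iISC organoids, -0.11, 1.64 and 1.02 in iFIPC organoids, 2.60, 2.51 and 1.98 in crypt organoids and 0.03, 0.15 and 0.35 in FI organoids. All 3 crypt levels lay above those of the other 3 groups. The difference was -2.34 ± 0.41 for iISC against crypt organoids (adjusted p = 0.0148, limma) and 2.19 ± 0.41 for crypt against FI organoids (adjusted p = 0.00777, limma). Cyp2b9 differed by -2.10 ± 0.35 and 2.02 ± 0.35, Cyp2b13 by -2.26 ± 0.37 and 2.17 ± 0.37 in the same comparisons, and Cyp2b23 by 2.15 ± 0.43 for crypt against FI organoids; shared probe matches mean that Cyp2b9 and Cyp2b13 are not independent of Cyp2b10. For Cyp2b23, which the iISC arrays did not show above background, iISC organoids were at least 5.93-fold lower than crypt organoids. Cyp2b19, the CYP2B gene of skin, was called in neither comparison.

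The upstream sequences of Cyp2b9 and Cyp2b13 are shown because their probes match overlapping sets of CYP2B transcripts, so the values of the genes cannot be told apart. The sequences were identical at 248 of 250 positions (99.2%), and capitals mark the 2 positions at which they differ.

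Cyp2b9 upstream (chr7:26173159-26173408, + strand, GRCm38.p6): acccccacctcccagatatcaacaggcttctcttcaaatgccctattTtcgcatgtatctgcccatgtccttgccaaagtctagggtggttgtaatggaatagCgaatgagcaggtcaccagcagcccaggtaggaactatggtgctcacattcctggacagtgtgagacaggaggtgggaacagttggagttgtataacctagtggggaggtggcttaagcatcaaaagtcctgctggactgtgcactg
Cyp2b13 upstream (chr7:26061245-26061494, + strand, GRCm38.p6): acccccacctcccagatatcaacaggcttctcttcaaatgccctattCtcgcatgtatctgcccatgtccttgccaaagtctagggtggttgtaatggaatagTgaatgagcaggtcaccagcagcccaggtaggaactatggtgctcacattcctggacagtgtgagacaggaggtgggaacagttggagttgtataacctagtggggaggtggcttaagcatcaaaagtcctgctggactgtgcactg

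Among CYP2C genes, Cyp2c38 was found above background in crypt organoids alone, on 3 of 3 arrays there and on 0 of the other 15 arrays. It was at -4.83, -4.09 and -3.95 in crypt organoids. Against these, iISC organoids were at least 3.55-fold lower, and crypt organoids were at least 6.33-fold higher than FI organoids. The gene entered both tests through its crypt arrays alone. Its adjusted p-values rest on signals below background in the other group and are not given. Cyp2c65 and Cyp2c66, the CYP2C genes of intestinal epithelium, were at 4.90, 5.91 and 5.36 and 3.96, 4.94 and 4.25 in iISC organoids, against 6.62, 6.90 and 6.92 and 5.96, 6.33 and 6.20 in crypt organoids, with no overlap for either gene. Cyp2c37 differed by -1.82 ± 0.29. Cyp2c55 was the CYP2C gene that ran against the rest, at 2.74, 3.26 and 2.44 in crypt organoids and 4.30, 4.58 and 4.96 in FI organoids (-1.80 ± 0.35, adjusted p = 0.00818, limma).

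Cyp2d13 was above background on all iISC and crypt arrays and on no FI array. It was at -2.67, -3.37 and -3.05 in iISC organoids, -8.17, -4.94 and -7.80 in iFIPC organoids, -4.64, -2.83 and -2.67 in crypt organoids and -8.94, -8.90 and -8.28 in FI organoids. Crypt organoids were at least 11.9-fold higher than FI organoids for this gene, which entered that test through its crypt arrays alone. The budding iISC and crypt organoids overlapped for it and were not called different (0.35 ± 0.79, adjusted p = 0.836, limma), although with slide as a term the difference was -3.33 and was called. Cyp1b1 ran the other way, at -8.76, -8.34 and -7.81 in crypt organoids, where no array was above background, and -4.54, -1.89 and -3.34 in FI organoids. It was at least 10.3-fold lower in crypt organoids and entered that test through its FI arrays alone. The only P450 gene called higher in iISC than in crypt organoids was Cyp2j5, an epoxygenase best known from kidney, at -3.08, -2.10 and -1.49 in iISC organoids and -4.61, -6.71 and -6.01 in crypt organoids, 2 of whose 3 arrays were above background (3.55 ± 0.80, adjusted p = 0.0364, limma). None of the 5 CYP3A genes, the main drug oxidases of human gut, was called in either comparison; Cyp3a11 was at 1.05, 1.51 and 0.94 in iISC organoids, 3.19, 3.07 and 3.41 in crypt organoids and 0.55, 1.37 and 2.60 in FI organoids. The iISC levels of Cyp3a11 lay below all crypt levels, with an adjusted p of 0.137 (limma).

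Further CYP2C genes were higher in crypt than in FI organoids. Cyp2c44, whose current symbol is Cyp2c23 and which makes epoxides of arachidonic acid, was at -1.81, -2.30 and -2.29 in iISC organoids, -1.28, -4.18 and -4.30 in iFIPC organoids, -1.84, -0.23 and 0.07 in crypt organoids and -4.18, -3.43 and -3.66 in FI organoids (3.09 ± 0.76 for crypt against FI, adjusted p = 0.0232, limma). Among the iFIPC samples, sample 1 stood above the other two. Cyp2c70, which makes muricholic acids in mouse liver, was at -1.01, -0.14 and 0.87 in iISC organoids, -2.80, -1.11 and -2.40 in iFIPC organoids, 1.82, 0.45 and 1.04 in crypt organoids and -1.11, -0.89 and -1.26 in FI organoids. It was higher in crypt than in FI organoids (2.19 ± 0.55, adjusted p = 0.0248, limma) and higher in iISC than in iFIPC organoids (2.01 ± 0.55, adjusted p = 0.0385, limma). In iHep cells it averaged 0.83 ± 1.63 (SD, n = 3), highest in iHep 2. Cyp2c29 and Cyp2c39 had tight groups: Cyp2c29 was at 3.20, 3.47 and 3.61 in crypt organoids and 1.74, 2.08 and 2.17 in FI organoids, and Cyp2c39 at -0.19, 0.33 and 0.56 in crypt organoids and -1.60, -1.63 and -1.49 in FI organoids.

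The samples of crypt and FI organoids did not overlap for 40 of 57 P450 genes tested (35.8% of all genes tested), with a median difference of 1.39 over the P450 genes and -0.02 over all genes tested. Those of iISC and crypt organoids did not overlap for 24 of 52 (25.5% of all genes tested), with a median of -0.22 over the P450 genes and -0.01 over all. Among the genes without overlap that were not called were 4 CYP3A genes in iISC against crypt organoids, which the probes partly share. Cyp3a25 was at 0.20, -0.15 and -0.25 in iISC organoids, -2.10, 2.82 and 0.53 in iFIPC organoids, 0.96, 2.38 and 2.59 in crypt organoids and -0.06, 0.17 and 2.01 in FI organoids. Its spread among the iFIPC samples exceeded its difference between iISC and crypt organoids (-2.04 ± 1.05, adjusted p = 0.298, limma). Cyp3a13, unlike these, was at 4.42, 4.81 and 5.18 in iISC organoids and 4.12, 5.02 and 4.87 in crypt organoids, with overlapping groups. Of the CYP2D genes, Cyp2d26 was at 7.46, 6.88 and 7.38 in iISC organoids, 4.52, 6.43 and 6.26 in iFIPC organoids, 6.71, 7.47 and 7.44 in crypt organoids and 6.47, 5.12 and 6.62 in FI organoids. All budding samples lay above all mixed samples for this gene, without a call (1.51 ± 0.54 for iISC against iFIPC and 1.14 ± 0.54 for crypt against FI organoids).

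Cyp1a1 and Cyp2e1 were called in none of the comparisons between organoid groups. Cyp1a1 was at -6.37, -7.19 and -5.88 in iISC organoids, -3.32, -5.32 and 0.32 in iFIPC organoids, -5.99, -3.59 and -3.87 in crypt organoids and -3.34, -1.49 and -3.75 in FI organoids. Of the organoid groups it spread most within iFIPC, where sample 3 was the highest of all 12 organoid samples. Cyp2e1 was at -1.49, -2.35 and -1.67 in iISC organoids, -1.24, -3.16 and -1.90 in iFIPC organoids, -0.26, -1.17 and -1.53 in crypt organoids and -1.37, -3.57 and -2.36 in FI organoids, above background on all 12 organoid arrays and on none of the iHep or MEF arrays. Cyp20a1, a P450 with no settled substrate, stayed between -0.61 and 1.07 in all samples, and was lower than in MEFs in iISC (-1.48 ± 0.21), iFIPC (-1.08 ± 0.21) and crypt organoids (-1.34 ± 0.21). Spike-in controls also read lower on the organoid arrays than on the MEF and iHep arrays.

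**Figure D3:**
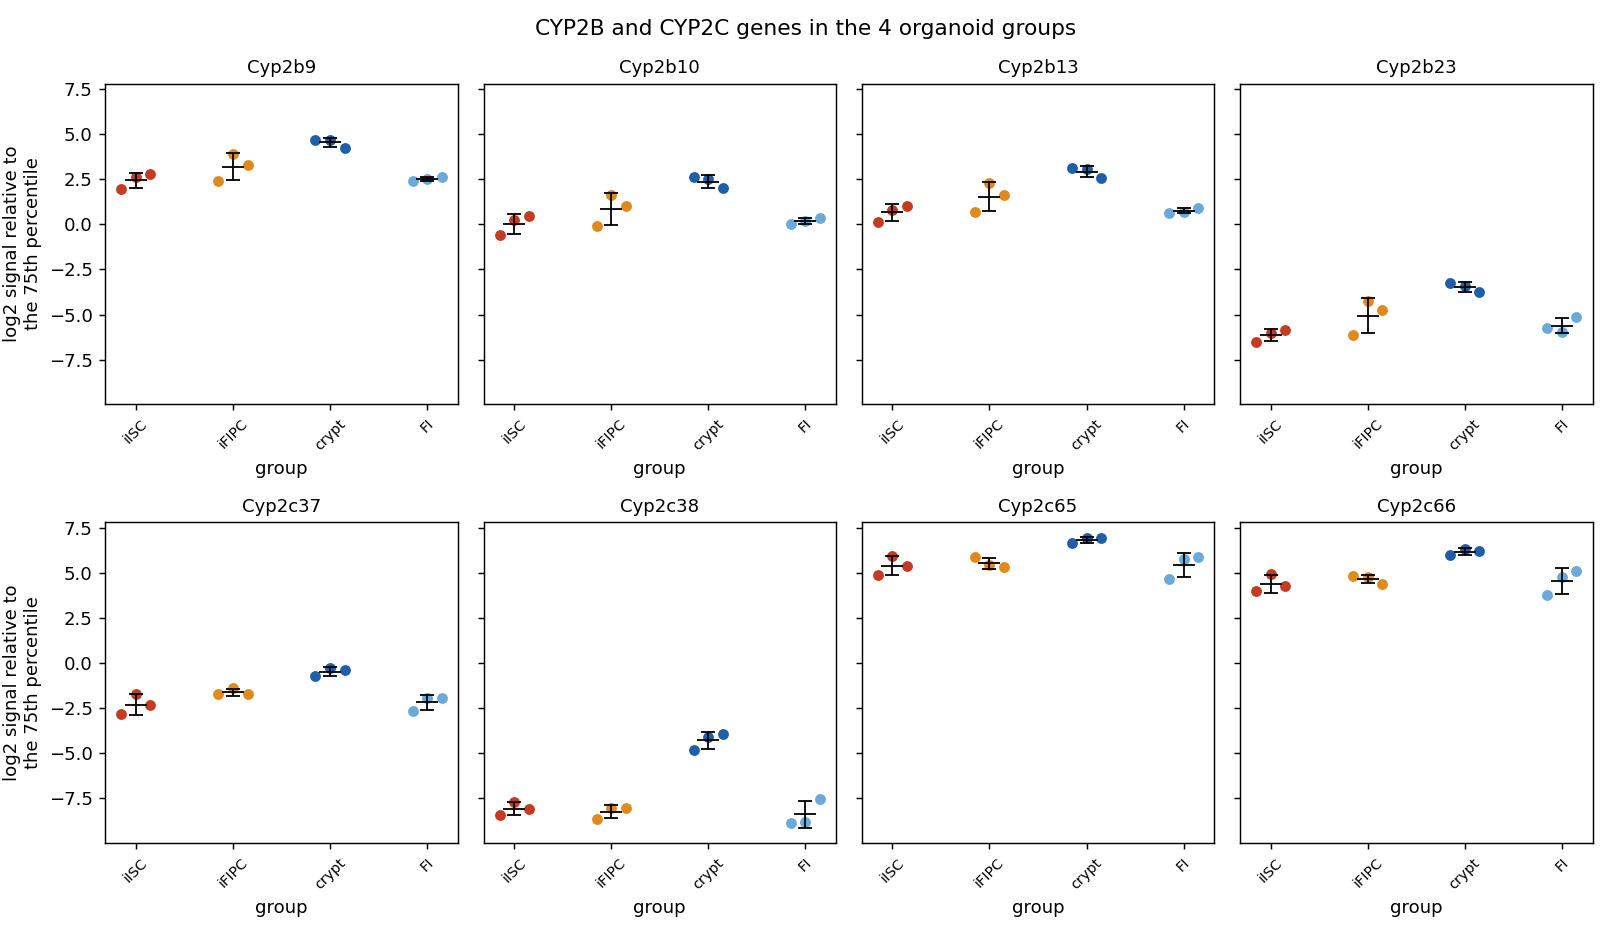
Levels of 4 CYP2B and 4 CYP2C genes as log2 signal relative to the 75th percentile (vertical axes) in iISC, iFIPC, crypt and FI organoids (horizontal axes). Points are samples (3 in each group) and bars are means with SD: crypt samples lie above iISC samples for all 8 genes, and Cyp2c38 is near the floor of the scale in the other 3 groups.

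**Figure D4:**
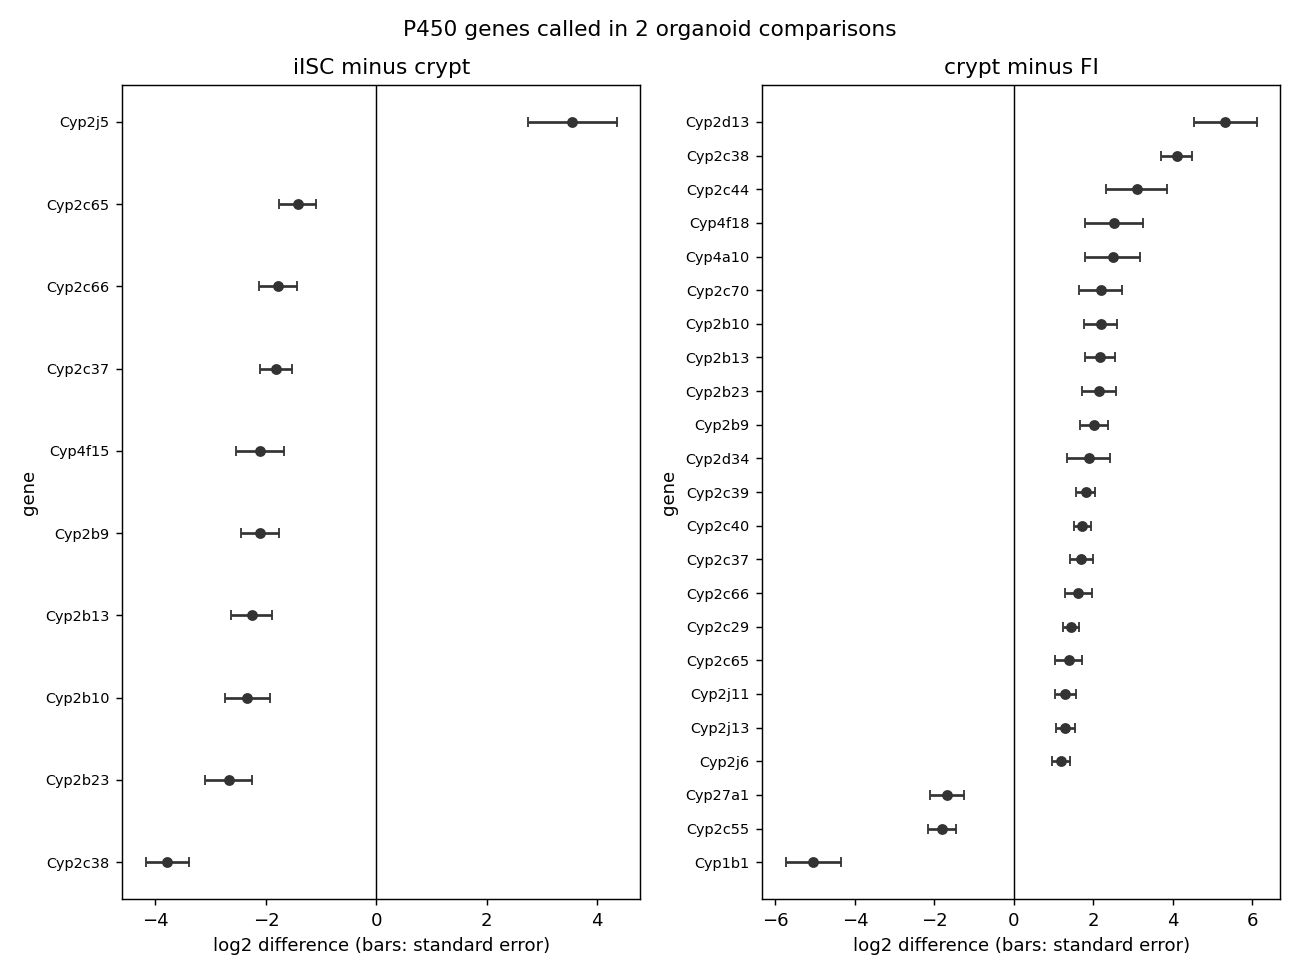
Log2 differences (horizontal axes) with standard errors (bars) for the P450 genes called (rows) in iISC against crypt organoids (left, 10 genes) and crypt against FI organoids (right, 23 genes). The 4 CYP2B genes lie below 0 on the left and above 0 on the right, and share the crypt samples in both.

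With slide as a term in the model, all 10 genes kept their direction in iISC against crypt organoids, but none of them kept the call. The term links these groups through the iFIPC samples on both of their slides. At an unadjusted p under 0.05 (limma) and a log2 difference of at least 1 there were 17 P450 genes, and no share over all genes is given for that count. Under this term Cyp2b10 was at -3.40, and Cyp2d13 was the 1 P450 gene called. The fitted -4.38 for Cyp2c38 rests on iISC signals below background and is no measured size. Without the slide term, the count of P450 genes called was 3 when crypt sample 2 was left out (Cyp2b23, Cyp2c37 and Cyp2c38). It was 6 without crypt sample 3 and 6 without iISC sample 3. In crypt against FI organoids the slide term left 7 of the 23 calls, among them Cyp2b9 at 2.17 and Cyp2d13. The fitted 4.07 for Cyp2d13 rests on FI signals below background and is no measured size. The slide that held crypt sample 1 and all FI samples gave a fit with 1 crypt sample. All 23 genes kept their direction in both fits. Summed enterocyte markers were highest in crypt organoids too, at 787 to 1045, against 508 to 651 in iISC organoids and 216 to 613 in FI organoids. Of 9 such markers, 1 was called lower in iISC than in crypt organoids and 3 were called higher in crypt than in FI organoids. The part of these markers in the result was not tested. In these bulk samples, fewer cells of a type and less RNA per cell cannot be told apart.

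Nr1i3 itself was at a mean level of 0.40 in iISC organoids, against 1.54 in crypt organoids (-1.15 ± 0.26, adjusted p = 0.0378, limma), and crypt organoids exceeded FI organoids by 1.91 ± 0.26 (adjusted p = 0.00203, limma). Nr1i2 (PXR), the other drug-sensing receptor of CYP2B and CYP3A genes, was called in neither comparison, at -0.01 ± 0.16 and 0.09 ± 0.16. Of 36 genes listed as regulators of P450 genes, 4 were lower and 0 higher in iISC than in crypt organoids (34 tested), where 1.31% of all genes tested were lower and 2.08% higher, the others being the forkhead factor Foxa1 (-3.53), the liver development factor Onecut1 (-5.22) and the clock-linked factor Hlf (-2.43, above background on 1 of 3 iISC arrays). The median difference was -0.12 over the listed regulators and -0.01 over all genes tested. As for the P450 genes, no slide held both iISC and crypt samples. The part of Nr1i3 or of any other regulator in the P450 values was not tested.

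Whether induced organoids differed from native ones in the same way in the budding and the mixed organoids was tested as a difference of differences, iISC minus crypt less iFIPC minus FI. Of 59 P450 genes tested 10 were called, all below 0, while 5.3% of all 14509 genes tested were called (3.29% above 0 and 2.01% below). They were 4 CYP2B genes, 5 CYP2C genes and Cyp7b1. Cyp2c38 and Cyp7b1 were each above background in 1 of the 4 groups alone (crypt for Cyp2c38, iFIPC for Cyp7b1) and passed the filter through it, so their fitted sizes are not measured ones. Cyp2b10 differed by -2.34 ± 0.41 between iISC and crypt organoids and by 0.68 ± 0.42 between iFIPC and FI organoids, a difference of -3.01 ± 0.59 (adjusted p = 0.0193, limma). With slide as a term, no P450 gene was called by limma, and all 10 kept their direction. At an unadjusted p under 0.05 (limma) and a log2 value of at least 1 in size there were 13 P450 genes, and no share over all genes is given for that count.

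In iFIPC against FI organoids 5 P450 genes were higher and 2 lower, of 57 tested, while 10.8% of all 14372 genes tested were called (5.73% higher and 5.03% lower), so the P450 share (12.3%) was near that of all genes and is no result about P450 genes. The 5 were Cyp7b1, an oxysterol hydroxylase, Cyp2r1, a vitamin D hydroxylase, Cyp26b1, which breaks down retinoic acid, Cyp2a5, and Cyp1b1, an oestrogen and dioxin-responsive oxidase abundant in fibroblasts. Cyp7b1 was at -5.52, -5.14 and -3.30 in iFIPC organoids, against -9.17, -9.15 and -9.37 in FI organoids, where no array was above background. Cyp1b1 was at -0.67, -1.24 and -0.40 in iFIPC organoids, against -4.54, -1.89 and -3.34 in FI organoids (2.49 ± 0.69, adjusted p = 0.0279, limma). For both genes all iFIPC samples lay above all FI samples. Cyp7b1, which entered the test through the iFIPC arrays alone, was at least 4.92-fold higher. Cyp26b1 was at -5.04, -2.94 and -2.05 in iFIPC organoids and -6.36, -6.13 and -6.14 in FI organoids (2.87 ± 0.76), and iFIPC sample 1 was its lowest. Cyp2r1 was at -3.80, -3.86 and -3.74 in iFIPC organoids and -7.91, -6.87 and -5.97 in FI organoids (3.12 ± 0.96), where 1 of 3 arrays was above background. Cyp2a5, which MEFs did not express above background, was at -4.01, -3.64 and -4.22 in iFIPC organoids and -6.78, -6.53 and -6.55 in FI organoids (2.66 ± 0.58), while the other 4 higher genes were above background on all 3 MEF arrays. The samples did not overlap for 14 of the 57 genes, a smaller share than the 46.9% of all genes tested. The lower genes were Cyp4b1 (-1.84 ± 0.39), a bioactivating enzyme of lung and gut, and Cyp2w1 (-1.66 ± 0.47), known from fetal gut.

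Cyp1b1, Cyp7b1 and Cyp26b1 were well above background on at most 1 of 3 iISC arrays. Cyp1b1 was at -8.45, -7.72 and -6.22 in iISC organoids, -8.76, -8.34 and -7.81 in crypt organoids, 2.09, 0.55 and 0.99 in iHep cells and 1.83 and 2.57 in MEFs. Against iFIPC organoids, iISC organoids were at least 40.6-fold lower for Cyp1b1 and at least 2.76-fold lower for Cyp7b1. Both genes entered that test through the iFIPC arrays alone. Cyp26b1 was lower too and was above background on 1 of 3 iISC arrays, so that the size is not given. Against MEFs, iISC organoids were at least 320-fold lower for Cyp1b1 and at least 109-fold lower for Cyp7b1, whereas iFIPC organoids differed by -2.98 ± 0.75 and -5.30 ± 0.62 log2 units. In iHep cells neither Cyp1b1, Cyp7b1 nor Cyp26b1 was called against MEFs, at -0.99, -0.72 and 1.99. The summed level of 10 fibroblast markers was 1.1 to 1.17 in iISC organoids, 2.75 to 12.1 in iFIPC organoids, 0.979 to 1.11 in crypt organoids and 0.757 to 1.75 in FI organoids; their part in the iFIPC values was not tested.

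With slide as a term, limma called none of the 7 genes in iFIPC against FI organoids. At an unadjusted p under 0.05 (limma) and a log2 difference of at least 1 there were 3 P450 genes, and no share over all genes is given for that count. Of the 7, 6 kept their direction, with Cyp26b1 at 0.88, while Cyp2r1 turned to -0.40. The fitted 4.57 for Cyp7b1 rests on FI signals below background and is no measured size. Without iFIPC sample 3, FI sample 1 or FI sample 2, 4 P450 genes were called, Cyp2a5, Cyp4b1 and Cyp7b1 each time. Without iFIPC sample 1, 10 were called (9 higher and 1 lower), of which 4 were among the 7. That sample was the lowest of its group for 42 of the 61 P450 genes above background on at least 1 iFIPC array.

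Between iISC and iFIPC organoids 10 P450 genes were higher in iISC organoids and 8 were lower, of 57 tested, while 8.05% of all 13769 genes tested were called (3.22% higher and 4.83% lower). The samples did not overlap for 30 of the 57 genes (38.3% of all genes tested). Without iFIPC sample 1, 5 were higher and 12 lower (11 of the 18 calls shared). Among genes above background on every array compared 9 were higher and 1 lower, of 44 P450 genes tested. Of all 12745 genes tested that way, 711 were called, 368 of them higher. Enterocyte markers moved with this comparison, with summed levels of 508 to 651 in iISC organoids and 145 to 359 in iFIPC organoids and 2 of 9 called higher; their part in the result was not tested. The higher genes included 4 CYP2J genes. Cyp2j6, the CYP2J gene of intestine, was at 4.43, 4.47 and 4.49 in iISC organoids, against 2.88, 3.73 and 3.24 in iFIPC organoids (1.18 ± 0.23, adjusted p = 0.0116, limma). The iISC samples were nearly equal and all above the iFIPC samples. Cyp4b1 (2.82 ± 0.39), Cyp2u1 (2.70 ± 0.47), a fatty acid hydroxylase, and Cyp2d13 (3.94 ± 0.79, above background on 1 of 3 iFIPC arrays) were higher as well, and Cyp2c55 (-1.82 ± 0.35) and Cyp27a1 (at least 3.04-fold) were lower. With slide as a term 3 P450 genes were called: Cyp1b1 (fitted -6.23), Cyp2a5 (-4.56) and Cyp2d13 (1.91). Cyp1b1 and Cyp2a5 were above background on 0 of 3 iISC arrays and entered the test through the iFIPC arrays alone. Their fitted values rest on signals below background and are no measured sizes. On the slide that held all iISC samples and iFIPC sample 2, a fit with 1 iFIPC sample, the fitted value of Cyp2a5 was also -4.56. All 18 genes kept their direction in both fits.

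**Figure D5:**
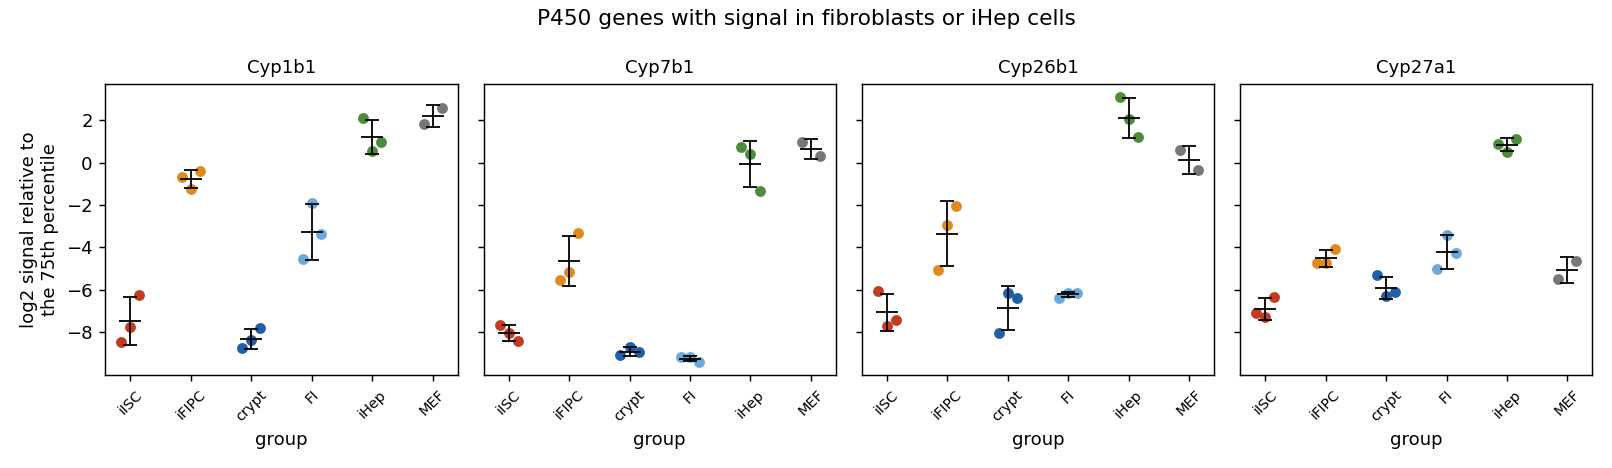
Levels of Cyp1b1, Cyp7b1, Cyp26b1 and Cyp27a1 as log2 signal relative to the 75th percentile (vertical axes) in all 6 groups (horizontal axes). Points are samples (3 in each group, 2 in MEFs), bars are means with SD: the first 3 genes are high in iHep cells and MEFs and intermediate in iFIPC organoids, and Cyp27a1 is high in iHep cells.

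The CYP4 family holds 13 of the genes. Against MEFs, 6 CYP4 genes were higher in iISC organoids (7 tested), 6 in iFIPC organoids (9 tested), 8 in crypt organoids (9 tested), 6 in FI organoids (9 tested) and 2 in iHep cells (8 tested), and none was lower. Called higher over all genes tested were 23.1% in iISC, 20.2% in iFIPC, 24.2% in crypt and 23.3% in FI organoids and 11.9% in iHep cells. Cyp4a10, a lauric acid hydroxylase induced through the fatty acid receptor Ppara, was at 1.14, 2.63 and 2.73 in crypt organoids, against -0.23, -1.56 and 0.82 in FI organoids (2.49 ± 0.69, adjusted p = 0.0363, limma). Cyp4f18, a leukotriene hydroxylase, was at 1.86, 3.50 and 3.54 in crypt organoids, against 0.55, -0.87 and 1.64 in FI organoids (2.53 ± 0.73, adjusted p = 0.0424, limma). For both genes crypt sample 1, which shared a slide with the FI samples, was the lowest of its group. Fitted with the slide term, Cyp4a10 was at 1.47 and Cyp4f18 at 1.42, and neither was called there or within the slide that held both groups. Cyp4a14, Cyp4a29, Cyp4a31 and Cyp4x1 were called in none of the 12 comparisons; Cyp4x1 was tested in 4 of them, and the other 3 genes passed the filter on dim probes in none.

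The bile acid and sterol genes differed from one another. Cyp39a1, an oxysterol hydroxylase, was detected on every array and was higher in iHep cells (1.53 ± 0.54) and FI organoids (1.81 ± 0.55) than in MEFs. Its call in iHep cells was lost with slide as a term (log2 difference 1.11) and within the slide shared with MEF 1. Cyp46a1, the cholesterol hydroxylase of neurons, was called in none of the 12 comparisons. Cyp8b1 was above background on 2 of 18 arrays, iISC samples 2 and 3, at levels of -5.12 and -3.96. Among the vitamin D genes, Cyp24a1, which inactivates the hormone, was at -8.71, -1.70 and -4.49 in iISC organoids and -0.86, -8.63 and -8.89 in crypt organoids; it was above background on 2 iISC arrays and 1 crypt array and on none of the others, so it was not tested in the full groups. Within the slide that held crypt sample 1 and the FI samples, where that sample alone stood for crypt organoids, it was called higher than in FI organoids. Cyp27b1, which activates vitamin D, was lower in all 4 organoid groups than in MEFs, with log2 differences of -1.52 (iISC), -1.35 (iFIPC), -1.37 (crypt) and -1.35 (FI), with a mean level of -5.03 ± 0.26 in iISC organoids and -3.50 ± 0.06 in MEFs (SD, n = 3 and n = 2). Of the 5 steroid hormone genes at most 2 were tested in any comparison, and Cyp19a1, the oestrogen synthase, was lower in FI organoids than in MEFs (-1.30 ± 0.38). For Cyp27b1 and Cyp19a1 these differences cross the 2 array sets, where instrument and cell type cannot be told apart. Spike-in controls differed by -1.20 to -0.52 log2 units between the sets (organoid minus MEF and iHep arrays).

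Of 16 genes listed as P450 electron donors or haem genes, 4 were higher and 0 lower in iHep cells than in MEFs (11.9% and 15.9% of all genes tested), among them Por (1.14 ± 0.36), the reductase, Cyb5a (2.53 ± 0.22), an electron carrier, and Alas1 (1.22 ± 0.24), which starts haem synthesis. In iISC against crypt organoids 1 of the 16 was called (3.39% of all genes tested), Cyb5r3 (-1.14 ± 0.19), a reductase of cytochrome b5, which was higher in crypt than in FI organoids (1.59 ± 0.19). Among the listed regulators, Hnf4a was at least 51.8-fold higher in iHep cells than in MEFs and did not pass the test in iISC against crypt organoids (0.07 ± 0.22) or in iFIPC against FI organoids (-0.33 ± 0.22).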

How the data were processed

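The 18 arrays were Agilent 1-colour scanner outputs. Per the file headers, the deposited processed signal is an intensity that Agilent Feature Extraction had corrected for background and spatial trend; the arrays were not scaled to each other at that step; the mean and background intensities and the 0 or 1 flags, another kind of deposited value, were also used. The submitters' processing notes name version 9.5.1.1; the organoid files name a later one. The authors' value table holds quantile-normalized intensities and served as an alternative. Signals were set to log2 minus each array's 75th percentile over 41174 gene probes and fitted with limma 3.58.1 in R 4.3.3, 1 mean for each group, over all 17 samples, or the 12 organoid samples where only organoids were compared; 12 comparisons were made, with two-sided tests. The fit was tested on simulated data. Old names were updated through RefSeq. The result of 1 regulator and its motifs is not reported here. The P450 genes, the lists of regulators, electron donors and cell type markers, and the tests were chosen with earlier results of these data known. Named were the called P450 genes with the greatest changes in each comparison, those without overlap between groups and the main genes of each role. Folds given as at least N-fold set the bright group's mean against the higher of the dim probe's signal and the lowest signal well above background on each dim array. No p-value is printed beside such a fold, because the fit to the signals as read does not measure the bound. The gene entered that test through its bright group alone. Same-numbered organoid samples did not deviate together (r from -0.416 to 0.359), so replicate numbers were not taken as pairs.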

Additional observations from a re-analysis of the deposited data

Results flagged for a closer look

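The difference between induced and native organoids was called different between the budding and the mixed organoids for 10 of 59 P450 genes tested, by limma's test of the difference of differences. Of all 14509 genes tested 5.3% were called. Among genes above background on every array compared, the P450 genes called were Cyp2b9, Cyp2b10, Cyp2b13, Cyp2c29, Cyp2c37, Cyp2c39 and Cyp2c66. Of all 12528 genes tested that way, 579 were called. The fitted values for Cyp2c38 (-3.94) and Cyp7b1 (-3.71) rest on signals below background in 3 of the 4 groups and are no measured sizes. The CYP2B genes Cyp2b23, Cyp2b13, Cyp2b10 and Cyp2b9 had values of -3.24, -3.02, -3.01 and -2.79, and the CYP2C genes Cyp2c37, Cyp2c66, Cyp2c39 and Cyp2c29 had values of -2.39, -1.90, -1.88 and -1.52. Among the organoids Cyp7b1 was above background in iFIPC samples alone, on 3 of 3 arrays. For the CYP2B genes the iISC against crypt differences were -2.10 to -2.68 and the iFIPC against FI differences 0.56 to 0.76. Cyp2b23 was above background on 0 of 3 iISC arrays, so its -3.24 and -2.68 are no measured sizes. With slide as a term, limma called none of the 10. The count of 13 P450 genes at an unadjusted p under 0.05 (limma) and a log2 value of at least 1 in size has no share over all genes beside it.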

How the results depend on the processing

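Of the 5355 values of called P450 genes under the alternatives, 4915 kept direction and call, 437 kept the direction without the call and 3 turned: Cyp2b23 in FI against MEFs to -0.10 with normexp background correction, Cyp2d22 in iFIPC against iHep to -0.43 with the mean over all its probes, and Cyp2r1 in iFIPC against FI to -0.40 with slide as a term. Testing only genes above background on every array compared, which tests fewer genes, gave 8 called P450 genes in iHep against MEF, 19 in iISC, 17 in iFIPC, 21 in crypt and 19 in FI against MEF, 27 in iISC against iHep, 6 in iISC against crypt and 10 in iISC against iFIPC. The P450 genes tested that way were 28, 23, 30, 25, 28, 34, 44 and 44 in that order. Called over all genes were 2737 of 12725, 4639 of 11893, 4367 of 12432, 4996 of 12096, 4978 of 12552, 3848 of 12050, 291 of 12669 and 711 of 12745 in that order. Slide as a fixed term gave 1 call in iISC against crypt, 0 in iFIPC against FI, 3 in iISC against iFIPC, 7 in crypt against FI and 0 in the difference of differences by limma (unadjusted counts stand above), and within 1 slide there were 7 (iHep against MEF), 1 (iISC against iFIPC) and 8 (crypt against FI). Normexp gave 3 in iFIPC against FI. The cause was not tested. Leaving out 1 sample gave 21 to 27 calls in iHep against MEF, 44 to 48, 37 to 42, 46 to 48 and 43 to 45 in iISC, iFIPC, crypt and FI against MEF, 42 to 50 and 37 to 43 in iISC and iFIPC against iHep, 3 to 11 in iISC against crypt, 4 to 10 in iFIPC against FI, 12 to 19 in iISC against iFIPC, 16 to 27 in crypt against FI and 8 to 15 in the difference of differences. With a replicate block the counts were 22, 48, 42, 49, 46, 45, 42, 8, 5, 15, 22 and 9 in that order, and 3 of 12 organoid arrays correlated best with their own number. Dropping genes whose probe lists transcripts of more than 1 gene, a rule chosen after seeing the data, left 7 in iISC against crypt and 18 in crypt against FI. Probes for which no gene was listed, among them that of Cyp2c65, were kept. Signals near background limit Cyp2c38, Cyp2b23 and Cyp7b1, whose levels in the dim groups are bounds.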
